A study of Mus musculus with 12 samples.

Results

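The genes described here are 10 that encode the oxidative stress regulator NRF2, its partner KEAP1 and enzymes of antioxidant defence: Nfe2l2, Keap1, Nqo1, Hmox1, Gclm, Gclc, Txnrd1, Srxn1, Gpx3 and Sod3. They were chosen by name, with earlier results of these data known. Each matched 1 of the 52636 gene rows in both tables of TPM. TPM is a measure of transcript level that corrects for transcript length and has the same sum in every library. Bulk RNA-seq of 12 mouse libraries covered 4 groups of 3: airway smooth muscle cells (SMCs) and PDGFR-β+ cells of the lung, which had received either a scrambled control RNA (Scr) or an siRNA against Klf4 (siKlf4). All groups carry the strain label C57BL/6, the Scr groups are labelled WT and the siKlf4 groups Klf4 KD, and every group was transfected. The SMCs are commercial tracheal smooth muscle cells (CellBiologics) with no age given, and the study describes them as primary airway cells. The PDGFR-β+ cells are labelled as coming from lungs of 12-week-old mice, and the study describes them as Zs+ cells sorted from tamoxifen-induced mice in which Pdgfrb-CreERT2 switches on a Zs reporter at ROSA26R. Cells that express PDGFR-β include fibroblasts and pericytes. The sources used here do not say whether cells of several mice were pooled. The cells were then cultured for days after transfection, so the comparison asks what loss of Klf4 does to these transcripts in each kind of cultured cell.

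NRF2, the product of Nfe2l2, is a transcription factor that KEAP1 marks for degradation by a ubiquitin ligase built on CUL3. When oxidants or electrophiles modify KEAP1, NRF2 accumulates, pairs with small MAF proteins and binds antioxidant response elements, whose core reads TGACNNNGC, in genes for quinone reduction (Nqo1), heme breakdown (Hmox1), glutathione synthesis (Gclc and Gclm) and the thioredoxin and peroxiredoxin cycle (Txnrd1 and Srxn1). Gpx3 and Sod3 encode a secreted glutathione peroxidase and the extracellular superoxide dismutase, which act on peroxide and superoxide outside the cell, and Sod3 is known as an abundant enzyme of the lung matrix.

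Promoter sequence is shown for the members that hold this core near a start site, because the core is the element through which NRF2 is known to act. RefSeq promoters on GRCm38.p6, from 250 bases before to 50 bases after a start site, were found for 7 of the 10 members, with 9 start sites in all. TGACNNNGC, searched on both strands, lay in 4 of these 9 windows, against 12.4% of 32817 promoter windows of the same length. Variant forms of the element were not searched for, so the windows may hold others. Positions are counted from the start site, and capitals mark the core. At Nfe2l2 the core lies from -240 to -232 on the strand of the gene, in a stretch that overlaps an exon of the opposite-strand gene E030042O20Rik (chr2:75704814-75704913, gene on the reverse strand). At Gclm it lies from -134 to -126 (chr3:122245377-122245476, forward strand), and at 1 of the 3 start sites of Txnrd1 from -92 to -84 (chr10:82859068-82859167, forward strand). At Srxn1 it lies inside the transcript, from 29 to 37 (chr2:152105544-152105573, forward strand). In the last 3 the capitals read as the reverse complement of the core.
Nfe2l2: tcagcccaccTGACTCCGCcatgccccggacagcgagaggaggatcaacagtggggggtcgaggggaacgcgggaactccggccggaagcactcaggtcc
Gclm: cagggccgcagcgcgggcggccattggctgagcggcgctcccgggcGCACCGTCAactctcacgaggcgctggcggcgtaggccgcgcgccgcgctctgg
Txnrd1: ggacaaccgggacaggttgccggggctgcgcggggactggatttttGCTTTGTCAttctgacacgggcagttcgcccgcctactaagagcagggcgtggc
Srxn1: agtgggcaGCTAGGTCAgagtgagacacgc
The windows of Keap1, Nqo1 and Gpx3 held no match, which says only that these letters are absent from them. CACCC, a short sequence that KLF factors are known to bind, lay on either strand in 6 of the 9 windows, against 57.5% of all promoter windows.

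Klf4 fell from between 89.6 and 96.3 TPM to between 16.3 and 26.5 TPM in SMCs, and from between 134 and 146 TPM to between 12.3 and 13.8 TPM in PDGFR-β+ cells. The knockdown was thus less deep in SMCs, where 21.9% of the Scr mean remained, than in PDGFR-β+ cells, where 9.16% did, and the log2 fold changes of Klf4 differed by 1.19 (adjusted p = 6.9e-04, limma). Sequencing depth cannot be read from TPM, so counting error is unknown and precision comes from the 3 libraries of each group. In SMCs, 1 Scr and 1 siKlf4 library carry no replicate number and are named in another form than the 4 numbered ones. The order of values given below for SMCs is the unnumbered library, then replicates 2 and 3, and for PDGFR-β+ cells replicates 1, 2 and 3. Of 8 smooth muscle markers, all were detected in both cell types, but their summed level was lower in Scr-treated SMCs (1509 to 2299 TPM) than in Scr-treated PDGFR-β+ cells (5577 to 6428 TPM), so these markers do not set the SMCs apart. In SMCs 7 of the 8 were higher with siKlf4, with sums of 3432 to 4204 TPM, and in PDGFR-β+ cells 3 were higher and 3 lower, with sums of 4736 to 5039 TPM. Of all genes tested, 15.6% were higher and 12.9% lower in SMCs, and 25.3% and 15.3% in PDGFR-β+ cells. Summed macrophage markers were 43.2 to 44.8 TPM in Scr-treated and 21.4 to 26.4 TPM in siKlf4-treated SMCs, most of it Cd14, with Adgre1 listed at 0 in every SMC library. In PDGFR-β+ cells they were 27.7 to 29.4 TPM with Scr and 20.5 to 25.6 TPM with siKlf4. Most of the Scr sum there was Lyz2, whose mean fell from 19.0 to 11.3 TPM. Csf1r was lower as well, while the mean of Cd14 rose from 6.88 to 10.5 TPM. The 6 mural and fibroblast markers summed to 3307 to 3590 TPM in Scr-treated and 2754 to 2892 TPM in siKlf4-treated SMCs, with 2 of them lower (Col1a2 and Cspg4). In PDGFR-β+ cells they summed to 3728 to 4404 TPM and 3044 to 4059 TPM, with 3 of them lower, Cspg4 at 22.3% of its Scr mean, Col1a1 at 65.3% and Pdgfrb at 75.9%. Endothelial markers summed to at most 18.4 TPM and epithelial markers to at most 1.03 TPM in any library. The part of these shifts in the results that follow was not tested. In bulk RNA, a change in the share of a cell type and a change in RNA per cell cannot be told apart.

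Without Klf4 knockdown, all 10 genes were expressed in both cell types, from 29.98 ± 10.1 TPM for Gclm to 1287 ± 141 TPM for Gpx3 in SMCs (SD, n = 3 here and below), and from 34.2 ± 2.71 TPM for Keap1 to 615 ± 4.90 TPM for Hmox1 in PDGFR-β+ cells. The tables of the cell types were made separately and cell type goes with table, so levels are set side by side and not tested. The study also describes different growth media for the cell types, with supplemented SMC medium after transfection. The part of cell source and medium in these levels was not tested. In 8 of the 10 genes the Scr libraries of the cell types did not overlap, 4 higher and 4 lower in SMCs, against 57.5% of 13032 genes, of which 29.2% were higher and 28.3% lower in SMCs.

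Gpx3 stood furthest apart. Its Scr level of 1287 TPM in SMCs was 8.88 times that in PDGFR-β+ cells (145 ± 31.9 TPM) and lay above 99.4% of the genes tested in SMCs. Sod3, the other extracellular enzyme, was 1.77 times as high in SMCs (104 ± 17.1 TPM) as in PDGFR-β+ cells (58.6 ± 6.82 TPM), and Gclc, the catalytic subunit of glutamate-cysteine ligase, 1.64 times as high (152 ± 13.7 against 93.1 ± 2.40 TPM). Nfe2l2 was close to equal at 210 ± 18.1 TPM in SMCs and 181 ± 12.2 TPM in PDGFR-β+ cells, although its libraries did not overlap.

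The intracellular enzymes Nqo1, Srxn1, Txnrd1 and Hmox1 were lower in SMCs. Nqo1, a quinone reductase, was 2.93 times as high in PDGFR-β+ cells (93.8 ± 22.9 TPM) as in SMCs (32.0 ± 7.35 TPM). Srxn1, which restores over-oxidised peroxiredoxins, was 2.22 times as high (85.2 ± 5.48 against 38.3 ± 2.94 TPM), and Txnrd1, cytosolic thioredoxin reductase, 1.61 times as high (202 ± 19.0 against 125 ± 7.94 TPM). For Hmox1 the ratio was 1.32, with 615 ± 4.90 TPM in PDGFR-β+ cells and 464 ± 61.4 TPM in SMCs. Libraries overlapped for Keap1 (37.1 ± 10.3 TPM in SMCs and 34.2 ± 2.71 TPM in PDGFR-β+ cells) and for Gclm, the modifier subunit of glutamate-cysteine ligase.

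**Figure D1:**
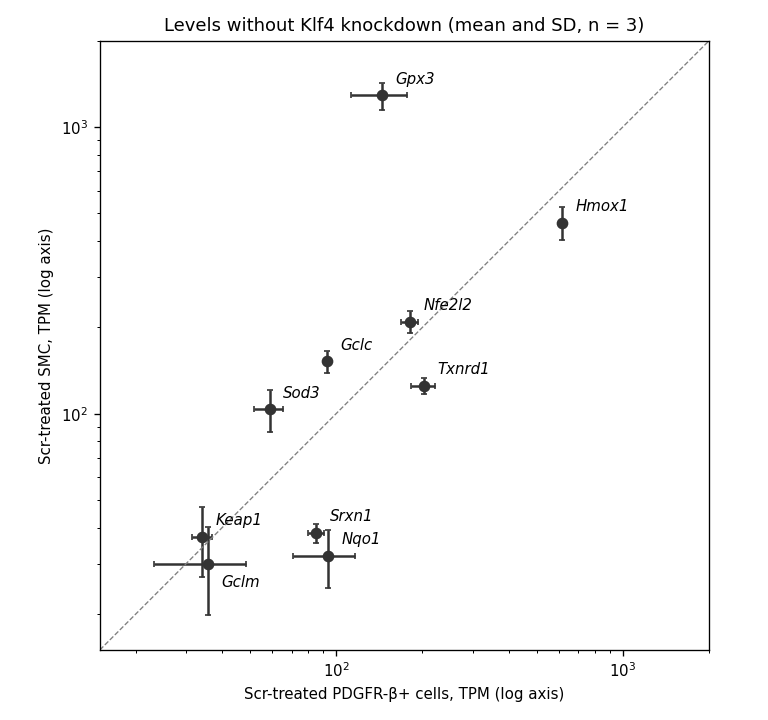
Mean TPM of each of the 10 genes in Scr-treated SMCs (vertical, log axis) against Scr-treated PDGFR-β+ cells (horizontal, log axis), with bars of 1 SD over 3 libraries and a dashed line of equal levels. Gpx3 lies far above the line, at 1287 against 145 TPM, and Srxn1 and Nqo1 lie furthest below it.

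Within SMCs the order of Scr levels was Gpx3, Hmox1, Nfe2l2, Gclc, Txnrd1, Sod3, Srxn1, Keap1, Nqo1 and Gclm. Neighbours in this order were apart in every library except Txnrd1 and Sod3, and the last 4, where each gene overlapped the next. In PDGFR-β+ cells the order was Hmox1, Txnrd1, Nfe2l2, Gpx3, Nqo1, Gclc, Srxn1, Sod3, Gclm and Keap1. There the libraries of Txnrd1, Nfe2l2, Gpx3, Nqo1 and Gclc overlapped from each gene to the next, as did Gclm and Keap1. Hmox1, whose enzyme degrades heme to biliverdin, iron and carbon monoxide, was thus above the other 9 genes in PDGFR-β+ cells and second to Gpx3 in SMCs.

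In PDGFR-β+ cells, siKlf4 raised Nfe2l2 itself together with Nqo1, Srxn1, Txnrd1 and Gclc, and lowered the 2 extracellular enzymes Gpx3 and Sod3. Of the 10 genes, 5 were higher and 2 lower past the threshold (limma of log2(TPM + 1) values, adjusted p below 0.05 by Benjamini-Hochberg over 13694 genes). Of all genes tested there, 40.6% were called, 25.3% higher and 15.3% lower. The 10 were chosen with earlier results of these data known, so comparisons of them with all genes only describe. The median log2 fold change of the 10 was 0.34, and that of all genes tested was 0.097. Scaling the libraries by median ratios moved the median of all genes to -0.0032 and the split of all calls from 3461 higher and 2098 lower to 2639 and 2977. Relative to the median of all genes, the 5 raised members lay between 0.39 and 1.15 above it and Gpx3 and Sod3 at -1.20 and -1.09, and each of the 7 calls held with that scaling. Libraries of Scr and siKlf4 did not overlap for 9 of the 10 genes, against 53.8% of all genes tested. An exact permutation test of 3 libraries against 3 could not go below a two-sided p of 0.1.

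Nfe2l2 (ENSMUSG00000015839.6, chr2:75675513-75704641, reverse strand) measured 186, 167 and 190 TPM in the Scr libraries and 256, 289 and 280 TPM after siKlf4. Every siKlf4 library was above every Scr library, and the log2 fold change was 0.60 (standard error, SE, of 0.080, adjusted p = 0.00108). The transcript of its inhibitor Keap1 (ENSMUSG00000003308.15, chr9:21229730-21239361, reverse strand) was 35.7, 35.8 and 31.0 TPM in the Scr libraries and 39.5, 37.0 and 41.2 TPM after siKlf4. These groups did not overlap either, but the log2 fold change of 0.20 (95% confidence interval -0.0078 to 0.40) was not past the threshold (adjusted p = 0.111). A small nuclear RNA gene, Gm24996, lies within Nfe2l2 on the same strand and reached at most 2.79 TPM. An antisense gene, Gm16754, overlaps Keap1 and reached at most 2.39 TPM in any library.

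Nqo1 (ENSMUSG00000003849.8, chr8:107388225-107403206, reverse strand) had the largest rise of the 10. It was 85.0, 120 and 76.6 TPM in the Scr libraries and 184, 255 and 227 TPM after siKlf4, so the mean was 2.36 times as high. The lowest siKlf4 library was well above the highest Scr library, and the log2 fold change was 1.25 (SE 0.18, adjusted p = 0.00165). Srxn1 (ENSMUSG00000032802.8, chr2:152105516-152111376, forward strand) rose from 88.3, 88.4 and 78.8 TPM to 166, 200 and 188 TPM, a log2 fold change of 1.10 (SE 0.090, adjusted p = 1.2e-04).

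Txnrd1 (ENSMUSG00000020250.10, chr10:82833951-82897712, forward strand), which keeps thioredoxin reduced, was 197, 223 and 186 TPM in the Scr libraries and 279, 303 and 282 TPM after siKlf4. The log2 fold change was 0.52 (SE 0.084, adjusted p = 0.00255), and Txnrd1 overlaps the low gene Eid3, at most 4.53 TPM, on the same strand. The subunits of glutamate-cysteine ligase, the enzyme of the first step of glutathione synthesis, did not share a call. Gclc (ENSMUSG00000032350.9, chr9:77754535-77794485, forward strand) rose from 94.4, 94.5 and 90.3 TPM to 123, 145 and 127 TPM, a log2 fold change of 0.49 (SE 0.079, adjusted p = 0.00252). Gclm (ENSMUSG00000028124.15, chr3:122245557-122270732, forward strand) was 26.0, 31.4 and 50.02 TPM in the Scr libraries and 41.1, 36.5 and 39.3 TPM after siKlf4, so Scr replicate 3 lay above every siKlf4 library. Its log2 fold change of 0.17 had an interval of -0.33 to 0.67 (adjusted p = 0.558). Without Scr replicate 3 the value was 0.43 (adjusted p = 0.0254), and without Scr replicate 1 it was -0.027. A pseudogene, Gm6061, overlaps Gclm on the same strand and reached at most 4.17 TPM.

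Hmox1 (ENSMUSG00000005413.8, chr8:75093621-75100589, forward strand), among the best known NRF2 targets, did not rise. It was 609, 616 and 619 TPM in the Scr libraries and 483, 569 and 545 TPM after siKlf4. Each siKlf4 library was below each Scr library, with a log2 fold change of -0.21 (95% confidence interval -0.39 to -0.032, adjusted p = 0.0611). With median-ratio scaling it was -0.32 and past the threshold (adjusted p = 0.0193).

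Gpx3 (ENSMUSG00000018339.11, chr11:54902453-54910377, forward strand) was 146, 112 and 176 TPM in the Scr libraries and 78.0, 60.5 and 60.3 TPM after siKlf4. The mean after siKlf4 came to 45.7% of that with Scr (log2 fold change -1.10, SE 0.17, adjusted p = 0.00222). Sod3 (ENSMUSG00000072941.5, chr5:52363791-52371418, forward strand) fell to 49.8%, from 64.1, 51.0 and 60.7 TPM to 35.7, 25.4 and 26.4 TPM, a log2 fold change of -0.99 (SE 0.15, adjusted p = 0.00169). For both genes the highest siKlf4 value was below the lowest Scr value.

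**Figure D2:**
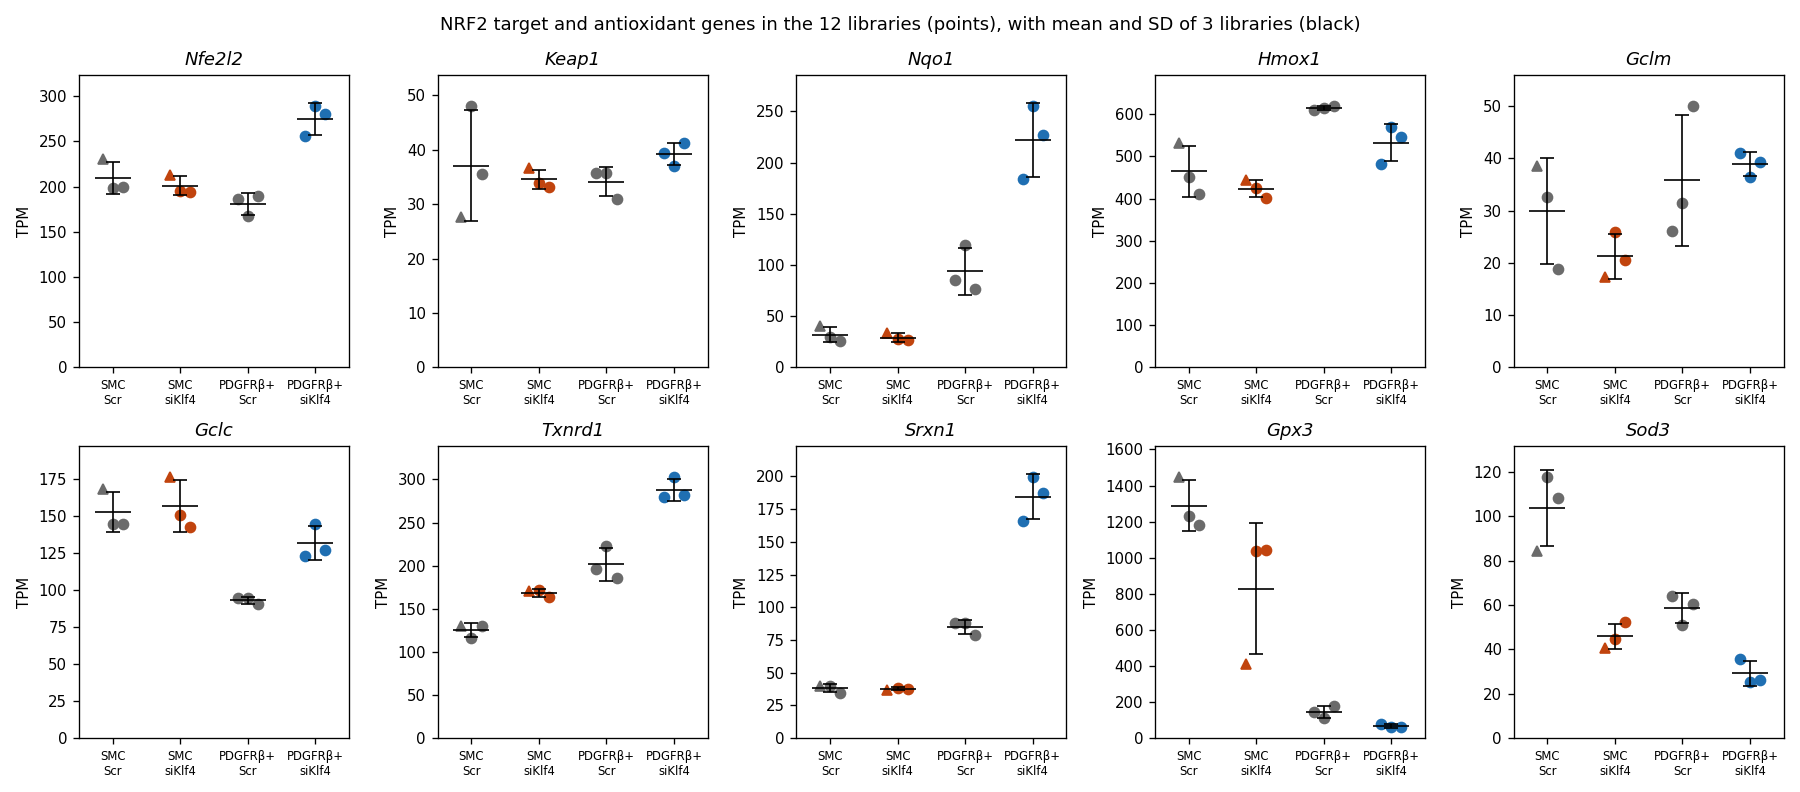
TPM of each gene (vertical axes, each starting at 0) in the 12 libraries as points, by group, with the mean and SD of 3 libraries in black; triangles mark the SMC libraries without a replicate number. In PDGFR-β+ cells the siKlf4 libraries of Nfe2l2, Nqo1, Gclc, Txnrd1 and Srxn1 lie above and those of Gpx3 and Sod3 below all Scr libraries, and in SMCs the unnumbered siKlf4 library of Gpx3 lies apart at 410 TPM.

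In SMCs siKlf4 raised Txnrd1 and lowered Sod3, and neither Nfe2l2 nor the other 7 genes passed the test. This is 1 gene higher and 1 lower of 10. Of 13709 genes tested, 28.5% were called, 15.6% higher and 12.9% lower. The median log2 fold change of the 10 was -0.091, beside 0.017 for all genes tested. Libraries of Scr and siKlf4 did not overlap for 3 of the 10, Txnrd1, Sod3 and Gpx3, against 47.1% of all genes tested.

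Txnrd1 was 130, 116 and 130 TPM in the Scr libraries and 171, 172 and 164 TPM after siKlf4, so that all siKlf4 libraries were above all Scr libraries. Its log2 fold change was 0.43 (SE 0.069, adjusted p = 0.00576). Sod3 fell to 44.3% of the Scr mean, from 84.6, 118 and 108 TPM to 40.8, 44.7 and 52.2 TPM. Its log2 fold change was -1.15 (SE 0.14, adjusted p = 0.00262).

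For Gpx3, the most abundant of the 10 in SMCs, 1 library decided the size of the difference. The gene measured 1448, 1232 and 1182 TPM in the Scr libraries and 410, 1035 and 1043 TPM after siKlf4. Each siKlf4 library was below each Scr library, and the unnumbered one was far below the other two. Over all 6 libraries the log2 fold change was -0.75 (95% confidence interval -1.57 to 0.064, adjusted p = 0.146). Over the 4 libraries with a number the value was -0.22 (adjusted p = 0.0250), and for the single unnumbered pair it was -1.82, with no replicate check.

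Nfe2l2 in SMCs was 230, 199 and 200 TPM in the Scr libraries and 213, 195 and 194 TPM after siKlf4, with overlapping groups and a log2 fold change of -0.060 (95% confidence interval -0.25 to 0.13, adjusted p = 0.607). Nqo1 was 40.2, 29.8 and 26.0 TPM in the Scr libraries and 33.7, 27.3 and 26.4 TPM after siKlf4. Its difference of -0.12 had an interval from -0.52 to 0.29 (adjusted p = 0.639). Srxn1 was 39.8, 40.2 and 34.9 TPM in the Scr libraries and 36.8, 38.7 and 38.0 TPM after siKlf4, a difference of -0.016 with an interval from -0.21 to 0.17 (adjusted p = 0.897). For these 3 genes the upper ends of the intervals in SMCs lay below the log2 fold changes measured in PDGFR-β+ cells.

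The remaining 4 genes overlapped between Scr and siKlf4 in SMCs. Gclc was 168, 145 and 144 TPM in the Scr libraries and 176, 150 and 142 TPM after siKlf4 (log2 fold change 0.034, adjusted p = 0.825). Gclm was 38.6, 32.5 and 18.8 TPM in the Scr libraries and 17.4, 25.9 and 20.6 TPM after siKlf4. Its log2 fold change was -0.43 (adjusted p = 0.257), and it depended on the libraries used. It was -1.11 for the unnumbered pair and -0.096 (adjusted p = 0.816) in the numbered libraries, and with 1 library left out it ran from -0.73 without Scr replicate 3 (adjusted p = 0.0353) to -0.23 without the unnumbered Scr library (adjusted p = 0.542). Keap1 spread widely among Scr libraries, at 27.7, 48.0 and 35.6 TPM, around siKlf4 values of 36.6, 33.9 and 33.2 TPM (log2 fold change -0.065, adjusted p = 0.811). Hmox1 was 531, 451 and 411 TPM in the Scr libraries and 444, 425 and 402 TPM after siKlf4 (log2 fold change -0.12, adjusted p = 0.392).

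**Figure D3:**
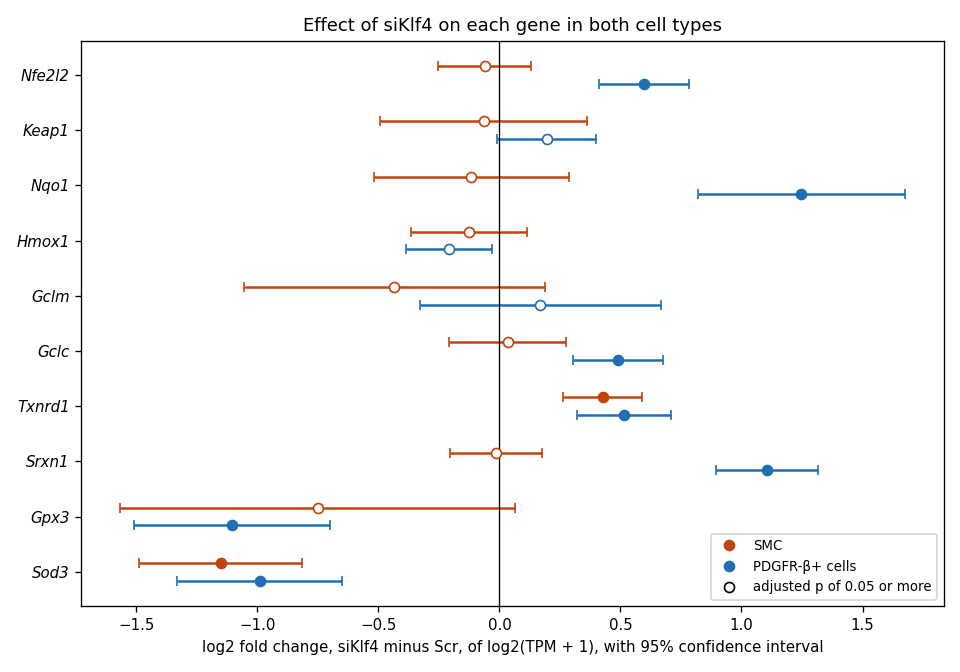
Log2 fold change of siKlf4 against Scr for each gene in SMCs and in PDGFR-β+ cells (horizontal axis, of log2(TPM + 1)), with 95% confidence intervals from limma; filled points have an adjusted p under 0.05. The points for Nfe2l2, Nqo1, Gclc and Srxn1 are raised in PDGFR-β+ cells and near 0 in SMCs, while Txnrd1 and Sod3 lie close together in both.

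For 4 of the 10 genes the response to siKlf4 was not the same in SMCs and PDGFR-β+ cells, each with the lower log2 fold change in SMCs. Klf4 itself fell less in SMCs, as given above, and the part of the depth of the knockdown in these differences was not tested. The background was 33.0% of 13032 genes called in either direction and 18.5% lower and 14.5% higher in SMCs, that is 2411 genes lower and 1886 higher, which became 1913 and 2510 after median-ratio scaling. The difference was -1.36 for Nqo1 (SE 0.27, adjusted p = 0.00295) and -1.12 for Srxn1 (SE 0.12, adjusted p = 5.0e-05). For Nfe2l2 it was -0.66 (SE 0.11, adjusted p = 0.00122), and for Gclc -0.46 (SE 0.13, adjusted p = 0.0214). The call for Gclc was lost with median-ratio scaling (-0.36, adjusted p = 0.0510), and in 3 fits that each left out 1 library: -0.39 without PDGFR-β+ siKlf4 replicate 2 (adjusted p = 0.0531), -0.43 without SMC siKlf4 replicate 2 (adjusted p = 0.0505) and -0.39 without SMC siKlf4 replicate 3 (adjusted p = 0.0545).

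For the genes called in both cell types, Txnrd1 and Sod3, the differences of -0.089 (95% confidence interval -0.33 to 0.15) and -0.16 (95% confidence interval -0.65 to 0.32) were not past the threshold. For Gpx3 the difference was 0.35 with an interval from -0.59 to 1.29 (adjusted p = 0.563), and it was 0.80 (adjusted p = 0.0246) without the unnumbered siKlf4 library of SMCs. The intervals for Keap1 (-0.73 to 0.21), Hmox1 (-0.20 to 0.37) and Gclm (-1.43 to 0.22) also held 0.

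The wider pathway was described with a list of 84 genes in 8 roles that includes the 10, leaving 74 others, of which 67 passed the filter on low values in SMCs and 69 in PDGFR-β+ cells. Of these others, 21 were higher and 16 lower in PDGFR-β+ cells, 30.4% and 23.2% of those tested, beside the 25.3% and 15.3% of all genes. In SMCs 8 were higher and 19 lower, 11.9% and 28.4%, beside 15.6% and 12.9%. The median log2 fold change of the others was 0.098 in PDGFR-β+ cells and -0.096 in SMCs, where all genes had 0.097 and 0.017. With median-ratio scaling the whole list in PDGFR-β+ cells went from 26 higher and 18 lower to 23 and 22, with 3 calls lost (Cul3, Rbx1 and Txn1) and 4 gained, each of them lower (Gss, Hmox1, Ftl1 and Slc48a1), while in SMCs it stayed at 9 and 20. Of 77 genes of the whole list tested in both cell types, 4 were higher in both (Txnrd1, Me1, Slc40a1 and Abcc1) and 8 lower in both (Gpx4, Mgst1, Mgst3, Ephx1, Aox1, Sod2, Sod3 and Cat). A further 4, Gstm1, Gstt1, Prdx6 and Idh2, fell in SMCs but rose in PDGFR-β+ cells. Of all genes tested, 28.5% were called in SMCs and 40.6% in PDGFR-β+ cells. The share of all genes called in both was not counted, so these joint counts only describe the list. The effects differed between the cell types for 35 of the 77, 25 lower and 10 higher in SMCs, or 19 and 11 with median-ratio scaling. Of all 13032 genes tested, 33.0% differed, 18.5% lower and 14.5% higher in SMCs. With median-ratio scaling 1913 of all genes were lower and 2510 higher. The list genes with the higher effect in SMCs, none of them a member, included some that fell in PDGFR-β+ cells. Their differences were 1.94 for Aldh3a1 (adjusted p = 5.4e-04) and 1.47 for Cat (adjusted p = 5.4e-05). For Ugdh and Prdx3 they were 0.98 (adjusted p = 0.00121) and 0.97 (adjusted p = 1.5e-04). Genes named in these counts and below that are outside the naming rule were chosen after their values were seen.

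Among the 13 regulators, 5 were higher and 2 lower in PDGFR-β+ cells. These are 38.5% and 15.4%, beside 25.3% and 15.3% of all genes tested there. Bach2, which encodes a repressor that competes for the same elements, rose from 1.46 ± 0.293 to 5.63 ± 0.299 TPM (log2 fold change 1.44, adjusted p = 2.3e-04), and its relative Bach1 rose by 0.58 (adjusted p = 0.0227). Cul3 and Rbx1, parts of the ligase that KEAP1 recruits to NRF2, had log2 fold changes of 0.21 and 0.22 (adjusted p = 0.0335 and 0.0311), calls that were lost with median-ratio scaling at 0.10 and 0.11 (adjusted p = 0.193 and 0.148). Nfe2l1 and Maff, encoding a relative of NRF2 and a small MAF partner, were the 2 that fell, with log2 fold changes of -0.44 and -0.41. In SMCs 1 of 12 tested passed, Gsk3b, a kinase that marks NRF2 for another route of degradation, at 0.31 (adjusted p = 0.0222). This is 8.33%, beside 28.5% of all genes tested in SMCs. Sqstm1, the most abundant regulator, encodes an adaptor that binds KEAP1 and showed log2 fold changes of 0.19 and 0.0060 in SMCs and PDGFR-β+ cells, neither past the threshold.

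The thioredoxin and peroxiredoxin group had the largest share of rises of the 8 roles in PDGFR-β+ cells. Here 7 of 12 genes (58.3%) were higher and 2 (16.7%) lower, beside 25.3% and 15.3% of all genes. The role was singled out after the values of all 8 were seen, and Srxn1 and Txnrd1 are members. Beside Srxn1 and Txnrd1, the rises were Prdx1, Prdx4, Prdx5, Prdx6 and Txn1, of which Txn1 was not called with median-ratio scaling (0.21, adjusted p = 0.0645). Prdx1, the most abundant and a cytosolic peroxidase, rose from 668 ± 22.7 to 1077 ± 54.9 TPM (log2 fold change 0.69, adjusted p = 2.7e-04). Prdx4, the peroxiredoxin of the endoplasmic reticulum, rose by 1.06 (adjusted p = 2.4e-05). Prdx3, which resides in mitochondria, fell from 88.6 ± 3.69 to 41.8 ± 5.13 TPM (log2 fold change -1.07, adjusted p = 2.0e-04), and Txnrd3 fell as well. In SMCs 2 of the 12 rose, Txnrd1 and Txn2 (for Txn2 not with quantile normalization, adjusted p = 0.1001), and 1 fell, Prdx6, from 454 ± 47.2 to 338 ± 51.8 TPM (log2 fold change -0.43, adjusted p = 0.0417). These shares in SMCs, 16.7% higher and 8.33% lower, stood beside 15.6% and 12.9% of all genes. In PDGFR-β+ cells Prdx6 rose by 0.44 (adjusted p = 0.0150), and SMCs minus PDGFR-β+ cells gave -0.87 (SE 0.18, adjusted p = 0.00328).

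Glutathione genes moved both ways in PDGFR-β+ cells, 8 of 21 tested higher and 5 lower. These are 38.1% and 23.8%, beside 25.3% and 15.3% of all genes. Gsta3 and Gstm1, which encode glutathione S-transferases, had the largest rises, from 4.36 ± 0.350 to 16.6 ± 1.27 TPM (log2 fold change 1.72, adjusted p = 3.2e-05) and from 135 ± 23.9 to 295 ± 17.6 TPM (log2 fold change 1.13, adjusted p = 5.9e-04). Slc7a11 and Slc3a2, the pair of subunits that imports cystine for glutathione synthesis, rose by 0.81 (adjusted p = 0.0141) and 0.32 (adjusted p = 0.00646). The falls were Gpx3, Gpx4, Gpx7, Mgst1 and Mgst3. Gpx8, the most abundant of the group there by its mean over both treatments, showed 0.078 and was not past the threshold.

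In SMCs 2 of 20 glutathione genes rose, Gss and Gsto1, and 7 fell. These are 10.0% and 35.0%, beside 15.6% and 12.9% of all genes. The largest falls were Mgst3, a membrane glutathione transferase, from 23.6 ± 0.668 to 11.5 ± 0.138 TPM (log2 fold change -0.98, adjusted p = 8.2e-04) and Gstm2, from 416 ± 33.3 to 233 ± 21.9 TPM (log2 fold change -0.83, adjusted p = 0.00188). Gstm1 fell there by 0.70 on the log2 scale, and its difference between the cell types was -1.83 (SE 0.19, adjusted p = 3.5e-05). The corresponding difference for Gstt1, with -0.71 in SMCs and 0.55 in PDGFR-β+ cells, was -1.26 (SE 0.16, adjusted p = 1.4e-04). Gstm and Gsta genes belong to families of near-identical copies, so reads can be split between them and their single values are uncertain.

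Catalase and mitochondrial superoxide dismutase went down with Sod3 in both cell types. In each, 3 of the 4 genes of this group fell, Sod2, Sod3 and Cat. Of all genes tested, 15.3% fell in PDGFR-β+ cells and 12.9% in SMCs. Cat, encoding catalase, fell from 94.6 ± 3.36 to 23.6 ± 1.11 TPM in PDGFR-β+ cells (log2 fold change -1.96, adjusted p = 5.7e-06) and from 132 ± 23.9 to 93.5 ± 8.73 TPM in SMCs (log2 fold change -0.49, adjusted p = 0.0356). Sod2 had log2 fold changes of -0.61 in PDGFR-β+ cells and -0.33 in SMCs. Sod1, the cytosolic one and the most abundant of the 4, was not past the threshold, at 0.13 in PDGFR-β+ cells and -0.050 in SMCs.

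Of the 7 genes listed under the NADPH role, 2 were higher and 1 lower in PDGFR-β+ cells. These are 28.6% and 14.3%, beside 25.3% and 15.3% of all genes. In SMCs 2 were higher and 3 lower, 28.6% and 42.9%, beside 15.6% and 12.9%. Idh2, encoding mitochondrial isocitrate dehydrogenase, went opposite ways. It rose from 44.6 ± 6.00 to 76.7 ± 6.71 TPM in PDGFR-β+ cells (log2 fold change 0.77, adjusted p = 0.00161) and fell from 306 ± 54.5 to 157 ± 27.1 TPM in SMCs (log2 fold change -0.96, adjusted p = 0.00619), a difference of -1.73 (SE 0.21, adjusted p = 1.1e-04). Me1, malic enzyme, rose in both, by 0.37 in PDGFR-β+ cells and 0.31 in SMCs. Pgd, the most abundant of the group in PDGFR-β+ cells, was not past the threshold in either (0.19 and 0.18). Idh1, the cytosolic enzyme and the most abundant in SMCs, fell there from 349 ± 44.4 to 213 ± 23.5 TPM (log2 fold change -0.71, adjusted p = 0.00574), as did G6pdx.

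Of 8 heme and iron genes, Slc40a1, the iron exporter ferroportin, rose in both cell types, from 3.21 ± 0.926 to 7.66 ± 1.14 TPM in PDGFR-β+ cells (log2 fold change 1.06, adjusted p = 0.00405) and from 2.16 ± 0.559 to 4.85 ± 0.354 TPM in SMCs (log2 fold change 0.90, adjusted p = 0.00751). Fth1, ferritin heavy chain, fell in SMCs from 26734 ± 1135 to 18768 ± 199.8 TPM (log2 fold change -0.51, adjusted p = 0.00436, and -0.77, adjusted p = 0.0780, with quantile normalization), and in PDGFR-β+ cells, at 5257 ± 71.2 and 5487 ± 299.7 TPM, it was not past the threshold. Fth1 has processed copies in the genome that can share its reads.

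The detoxification group, to which Nqo1 belongs, had 3 of 12 genes higher and 4 lower in PDGFR-β+ cells. The 25.0% higher is near the 25.3% of all genes, while 33.3% were lower, beside 15.3%. Over all genes, 3461 higher and 2098 lower became 2639 and 2977 with median-ratio scaling. The shares of all genes set beside each role in PDGFR-β+ cells thus depend on the scaling. Aldh3a1, an aldehyde dehydrogenase, had the largest fall of the whole list, from 5.67 ± 0.9503 to 0.334 ± 0.174 TPM (log2 fold change -2.32, adjusted p = 7.4e-05). Abcc1 and Abcc4, efflux pumps, rose with Nqo1 by 0.52 and 0.66. In SMCs 1 of the 12 rose, Abcc1, and 5 fell. These are 8.33% and 41.7%, beside 15.6% and 12.9% of all genes. The largest fall was that of Aox1, an aldehyde oxidase, from 30.9 ± 6.27 to 17.7 ± 2.00 TPM (log2 fold change -0.76, adjusted p = 0.0116). Ephx1, microsomal epoxide hydrolase and the most abundant gene of the group, fell in both cell types, by 0.48 on the log2 scale in SMCs and 0.30 in PDGFR-β+ cells. Summed smooth muscle markers were higher with siKlf4 in SMCs alongside these falls, as given above, and their part was not tested.

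**Figure D4:**
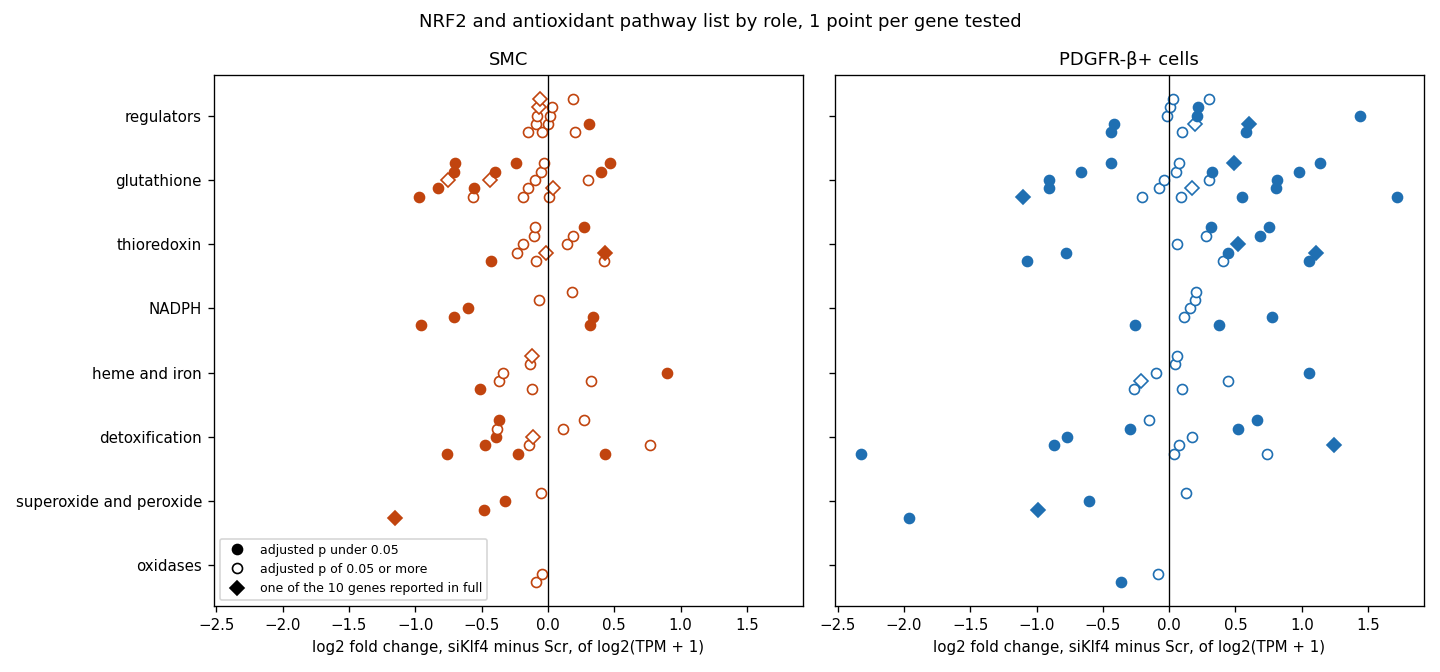
Log2 fold change of siKlf4 against Scr (horizontal axis, of log2(TPM + 1)) for each tested gene of the NRF2 and antioxidant list, by role, in SMCs (left) and PDGFR-β+ cells (right); filled points have an adjusted p under 0.05 and diamonds are the 10 genes reported in full. In PDGFR-β+ cells 7 of 12 thioredoxin genes are filled on the right side of 0, against 2 of 12 in SMCs. Of all genes tested, 25.3% were higher in PDGFR-β+ cells and 15.6% in SMCs. Sod2, Sod3 and Cat are filled on the left in both.

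Over the 12 libraries, each gene's log2(TPM + 1) profile was centred on its own mean and compared with 11564 named genes by the mean absolute difference. The libraries share cell type and treatment, so this describes likeness across 4 groups and no more. The profile nearest to Nqo1, which itself deviated by 1.10 on average, was that of Gsta4, which encodes a glutathione S-transferase, at 0.12. Ctnnd2 followed at 0.21. Nearest to Srxn1 were Hoxb7 and Jag1 (0.13 and 0.14), and to Sod3 Sorcs2 and Ptgis (0.13 and 0.15). For Gpx3 the nearest, Tmem176a and Ch25h, were both at 0.33, beside its own mean deviation of 1.67.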

How the data were processed

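Values are TPM, which the authors made by trimming reads, aligning them to mm10 with HISAT2 and GENCODE annotation (release not given in the sources used here) and estimating abundance with StringTie and ballgown, and deposited in a separate table for each cell type, 1 column per library. The authors ran DESeq2 on gene counts, which are not analysed here. All 12 columns were used. The study describes 3 independent experiments. Each cell type was fitted on log2(TPM + 1), keeping genes whose mean reached 1 TPM, with limma 3.58.1 in R 4.3.3 (eBayes with a mean-variance trend, two-sided, Benjamini-Hochberg over all genes tested, threshold 0.05), and the difference between cell types as the interaction over 12 libraries. Fold changes on this scale understate those of low genes. The procedure was tested on simulated data. All 10 members passed the filter in both cell types.

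In SMCs, libraries of the same number or naming deviated together (correlations of 0.36 for the unnumbered pair, 0.19 and 0.20 for replicates 2 and 3), which comes from the data and not the labels.

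The members, the list of 84 genes and the tests were chosen with earlier results of these data known. Named by rule were all members, Klf4, and per role and cell type the 2 largest called changes without overlap and the most abundant gene. Positions are from GENCODE M21 (GRCm38), and promoter sequences from RefSeq (GRCm38.p6). Libraries were strand-specific (second strands carried dUTP and were not amplified), while the strand setting used in counting is not given in the sources used here. Alternatives were a pseudocount of 0.1, no filter or a minimum of 5 TPM, median-ratio and quantile scaling, no trend, a single fit, a replicate block, the numbered SMC libraries alone and leaving out each library.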

Additional observations from a re-analysis of the deposited data

Results flagged for a closer look

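The response to siKlf4 was not the same in SMCs and PDGFR-β+ cells (interaction term, limma, SMCs minus PDGFR-β+ cells) for 4 of the 10 genes: by -0.66 for Nfe2l2, -1.36 for Nqo1, -0.46 for Gclc and -1.12 for Srxn1. The call for Gclc was lost with median-ratio scaling (adjusted p = 0.0510) and held in 9 of 12 fits that each left out 1 library. Of all 13032 genes tested, 33.0% were called, 18.5% lower in SMCs. The response also differed for the 4 genes of the wider list that were called in opposite directions. The differences were -1.83 for Gstm1, -1.26 for Gstt1, -0.87 for Prdx6 and -1.73 for Idh2. These 4 were picked because they fell in SMCs and rose in PDGFR-β+ cells. Their differences were thus bound to be large and negative. Over the whole list of 77 genes tested, 25 differences were lower and 10 higher in SMCs, or 19 and 11 with median-ratio scaling. Of all genes tested, 18.5% were lower and 14.5% higher in SMCs, that is 2411 and 1886 genes. These became 1913 and 2510 with median-ratio scaling, so the direction in which all genes leaned depended on the scaling.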

How the results depend on the processing

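The 7 calls in PDGFR-β+ cells and the calls of Txnrd1 and Sod3 in SMCs kept their direction and side of the threshold in all alternatives run, library omissions included, as did the differences between cell types for Nfe2l2, Nqo1 and Srxn1. In the numbered SMC libraries alone, 2 of the 10 genes were lower in SMCs (Sod3 and Gpx3), and the difference between cell types had 1 gene higher in SMCs (Gpx3, 0.89, adjusted p = 0.0223), where with all libraries there were 0, also 0 at an unadjusted p under 0.05. Signs of values near 0 changed for Gclc (-0.0058) in SMCs and the differences of Hmox1 (-0.012) with quantile normalization, for Srxn1 in the numbered SMC libraries (0.030) and for the difference of Txnrd1 with median-ratio scaling (0.0090). With 1 library left out in turn, log2 fold changes in SMCs lay between -0.10 and 0.0097 for Nfe2l2, -0.25 and 0.13 for Keap1, -0.25 and 0.056 for Nqo1, -0.054 and 0.11 for Gclc, and -0.079 and 0.020 for Srxn1, and in PDGFR-β+ cells between -0.027 and 0.43 for Gclm. In the same fits, members lower in SMCs numbered 1 to 2 and members with the higher effect in SMCs 0 to 1. List genes higher in SMCs numbered 5 to 7 (9 with all libraries) and list genes lower there 14 to 18 (20 with all libraries). In PDGFR-β+ cells they numbered 19 to 27 higher (26 with all libraries) and 15 to 17 lower (18 with all libraries). List genes with the higher effect in SMCs numbered 6 to 9 (10 with all libraries). The count of list genes higher in SMCs was lowest, at 5, without Scr replicate 3 or siKlf4 replicate 2. A replicate block, which in SMCs was a term for the naming of the libraries, kept the counts of members at 1 higher and 1 lower in SMCs and 5 and 2 in PDGFR-β+ cells. In SMCs a block of 3 levels, chosen after seeing the data, gave the same counts. Same-numbered PDGFR-β+ libraries did not deviate together (correlations of 0.073, -0.016 and 0.0043). The cause of these changes was not tested. Depth is unknown from TPM, so values of genes near 1 TPM, such as Bach2 with Scr, rest on an unknown number of reads.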

Other observations

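The NADPH oxidases, enzymes that make superoxide or peroxide, were represented by Nox4 and Cyba. Nox4 was 25.2 ± 4.82 TPM in Scr-treated and 23.7 ± 4.36 TPM in siKlf4-treated SMCs, and 12.9 ± 2.44 and 12.0 ± 1.69 TPM in PDGFR-β+ cells, with overlapping groups in both. Cyba, which encodes a membrane subunit shared by several oxidases, fell in PDGFR-β+ cells from 258 ± 30.04 to 200.3 ± 25.2 TPM (log2 fold change -0.36, adjusted p = 0.0425, limma) and was 219 ± 19.5 and 213 ± 23.6 TPM in SMCs. The other 4 listed, Nox1, Cybb, Duox1 and Duox2, were under 1 TPM on average in each group and were not tested.

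Gpx1, the cytosolic glutathione peroxidase, was 568 TPM in Scr-treated SMC replicate 2 and between 87.0 and 158 TPM in the other 11 libraries.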
